A study of Mus musculus with 7 samples.

Results

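The comparison described here set whole skeletal muscle of aged MISR mice against that of young wild-type (WT) mice. It used 5 of the 7 gene arrays in the series, 2 of aged MISR muscle and 3 of young WT muscle, and asked how old muscle with blocked NF-κB in its fibers differs from young muscle. Its members were the 13364 genes, of 22180 with a feature of their own on the array, whose signal reached the array median on at least 2 of the 7 arrays. All mice are labelled C57BL/6. Aged MISR mice were 24 months old and carried a transgene for an IκB super-repressor, a form of the NF-κB inhibitor that resists degradation, under the muscle creatine kinase promoter, which is active in muscle fibers and not in satellite cells. Young WT mice were 2 to 3 months old and carried no transgene. A pair of arrays of aged WT mice, also 24 months old, was used to set values side by side. No arrays of young MISR mice were used here, so age and genotype cannot be told apart in this comparison. The WT animals were bought from breeders while MISR animals were bred by the study, and colony and genotype cannot be told apart either. Neither the muscle nor the sex is given in the sources used here.

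NF-κB is a transcription factor held in the cytoplasm by IκB proteins and released when IκB is degraded. Once free, it switches on genes of inflammation, immunity and survival, and its activity rises in many tissues with age. Whole muscle holds fibers, which give most of its RNA, together with macrophages, vessels, nerve, connective tissue and satellite cells, so a signal is a sum over all of them, and fewer cells of a type and less RNA per cell cannot be told apart.

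Values are log2 RMA signals, in which a difference of 1 is a doubling, and a gene was called when its p, adjusted by the Benjamini-Hochberg method in a limma fit of all 7 arrays, was under 0.05. Standard errors (SE) come from that fit, and p-values measure only the spread between these few arrays. Array medians lay between 5.86 and 5.93. The SD of the gene differences between a pair of arrays was 0.13 to 0.15 among the young WT samples and 0.28 within the aged MISR pair. Over 17 muscle fiber markers the median difference was −0.02 with none called, which compares the groups and cannot check the tissue label. Ckm, the muscle creatine kinase gene, stood at 13.54 and 13.34 in aged MISR and at 13.46, 13.44 and 13.47 in young WT muscle. The transgene was not checked: Nfkbia, which encodes IκBα, read 8.17 and 8.94 in aged MISR against 9.01, 8.98 and 8.94 in young WT muscle, and the sources used here do not say whether its feature detects the transgene.

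Of 13364 genes, 79 were called (0.591%), 61 of them higher in aged MISR muscle (0.456%) and 18 lower (0.135%). Differences of called genes ran from 0.39 to 3.18 in size, with a median of 0.70, while the median difference over all genes tested was 0.04. The largest called rises were in antibody genes, followed by a sarcomere stress gene, a macrophage gene, a clock gene and a pair of MHC class II genes. The largest called falls were in a predicted gene of unknown function, a MAP kinase phosphatase, a muscle methyltransferase and an anchor of acetylcholinesterase. At an unadjusted p under 0.05 there were 1574 higher and 932 lower genes. In all 79 called genes the 2 aged MISR arrays lay outside the range of the 3 young WT arrays, as they did in 38% of all genes tested (24.4% higher and 13.6% lower). Both aged WT arrays also lay beyond all young WT arrays, on the same side, in 37 of the 61 rises and 17 of the 18 falls. The same young WT arrays enter here, so part of this sharing is built in, and its share over all genes was not counted. Outside the group where they are high, 8 called genes reached the array median on fewer than 2 arrays: Jchain, Igkv4-59, Angptl4, Cyp4v3 and 4930555G01Rik among the rises, and Prima1, Kcne2 and E230001N04Rik among the falls. These genes entered the test only through their high group, so their calls are conditioned on the difference. With no signal filter 5 of them were still called, and Cyp4v3, 4930555G01Rik and Kcne2 were not. The number of calls hung on single arrays. It was 0, 1 and 2 without young WT replicates 1, 2 and 3. In a fit of only the 5 arrays compared it was 13, of which 9 were among the 79. Leaving out an array could not change the sign of a called difference, since the groups did not overlap in these genes.

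**Figure D1:**
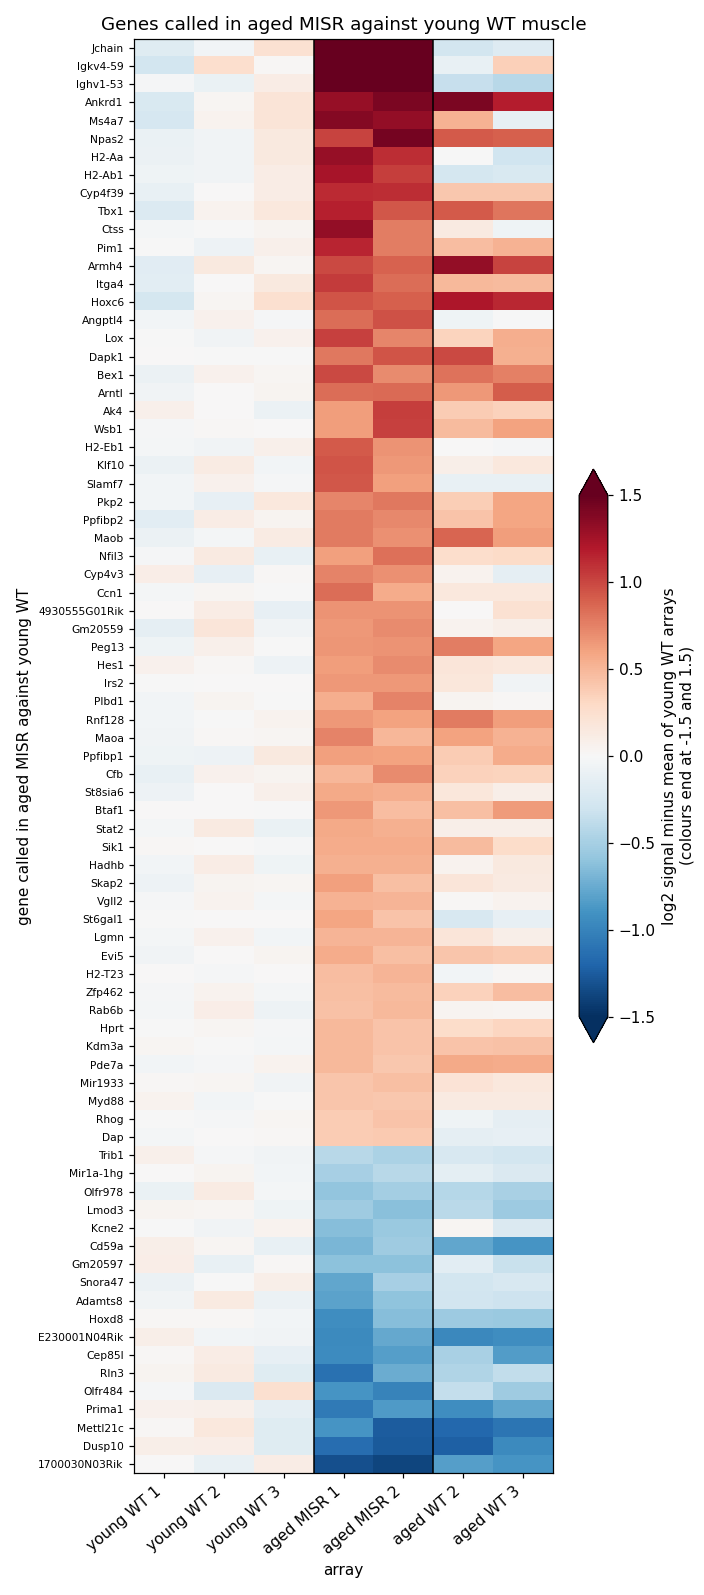
Each row is 1 of the 79 called genes and each column 1 array. Colour gives the log2 signal minus the mean of the 3 young WT arrays, and the darkest colours also stand for larger differences. Both aged MISR columns are red for the 61 genes called higher and blue for the 18 called lower. The aged WT columns differ from gene to gene, and both lay beyond all young WT arrays on the same side in 37 of the 61 and 17 of the 18.

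Antibody genes showed the largest called rises. Jchain, whose product joins antibody units into polymers, had signals of 9.59 and 8.44 in aged MISR muscle against 5.65, 5.79 and 6.06 in young WT muscle. Igkv4-59, a segment of the kappa light chain, read 8.44 and 7.63 against 4.78, 5.31 and 5.07. Ighv1-53, a segment of the heavy chain, read 10.17 and 9.50 against 7.35, 7.27 and 7.48. In all 3 genes both aged MISR arrays stood far above the young WT arrays, and replicate 1 was the higher. The differences were 3.18 (SE 0.30, adjusted p = 0.0214) for Jchain, 2.98 (SE 0.27, adjusted p = 0.0193) for Igkv4-59 and 2.46 (SE 0.18, adjusted p = 0.0098) for Ighv1-53. Jchain lay below the array median in 2 young WT arrays and Igkv4-59 in all 3, so their differences start near background and may be lower bounds. Both passed the signal filter only through the aged MISR arrays, and with no filter their adjusted p were 0.0328 and 0.0285. The aged WT arrays were as low as the young, at 5.55 and 5.64 for Jchain and 7.02 and 6.95 for Ighv1-53. Antibody segments have many near-identical copies, so which segment a feature detected is uncertain.

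Of 12 tested immunoglobulin and plasma cell genes, these 3 were called higher and none lower, with a median difference of 0.39. With any 1 young WT array left out none of the 12 was called, and 1 was in a fit of only the 5 arrays compared. Ighm, the constant part of IgM, was bright in every group and read 12.89 and 12.71 in aged MISR against 12.27, 12.28 and 12.25 in young WT muscle, a difference of 0.53 that did not pass (SE 0.35, adjusted p = 0.426). The aged WT arrays lay far apart, at 10.60 and 12.03, and their spread enters this SE. Markers of mature B cells differed between the aged MISR arrays: the median of 8 genes stood 0.55 above the young WT mean in replicate 1 and at −0.03 in replicate 2. Cd79a, a part of the B cell receptor, read 7.02 in replicate 1 and 6.33 in replicate 2 against 6.37, 6.24 and 6.43 in young WT muscle. Without aged MISR replicate 1, none of these 8 B cell markers was called, and without replicate 2 there were 5. Of the 12 immunoglobulin and plasma cell genes, 3 and 6 were called in these fits, in which the spread of the lone aged MISR array is taken from the other groups.

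MHC class II genes, whose products show peptides to helper T cells on macrophages, dendritic cells and B cells, had 3 called rises among 6 genes tested. H2-Aa, an alpha chain, read 9.17 and 8.97 in aged MISR against 7.78, 7.81 and 8.01 in young WT muscle. H2-Ab1, its beta chain, read 10.09 and 9.88 against 8.79, 8.79 and 8.96. H2-Eb1, the beta chain of the E molecule, read 9.27 and 9.03 against 8.33, 8.30 and 8.43. No arrays of the 2 groups overlapped in these 3 genes. H2-Aa was 1.20 higher (SE 0.12, adjusted p = 0.0214), H2-Ab1 1.14 higher (SE 0.09, adjusted p = 0.00997) and H2-Eb1 0.80 higher (SE 0.09, adjusted p = 0.0276). None of the 6 was called lower, and their median difference was 0.60. With any 1 young WT array left out none of the 6 was called, and 2 were in a fit of only the 5 arrays compared. H2-DMa, which loads the peptide, was 0.39 higher without passing (adjusted p = 0.0783). Ciita, the master activator of this family, showed 6.85 in both aged MISR arrays, inside its young WT range of 6.78 to 6.97. Aged WT muscle had 7.86 and 7.57 of H2-Aa and 8.58 and 8.62 of H2-Ab1. Without aged MISR replicate 1, 1 class II gene was called, and 4 were without replicate 2.

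Of 30 macrophage and monocyte markers tested, 3 were called higher and none lower. None was called with any 1 young WT array left out or in a fit of only the 5 arrays compared. In 24 of the 30 both aged MISR arrays were above all young WT arrays (24.4% over all genes), and the median difference was 0.54. The list stood 0.52 above the young WT mean in aged MISR replicate 1 and 0.55 in replicate 2, where the young WT arrays ran from −0.02 to 0.05. Ms4a7, a membrane protein of tissue macrophages, read 7.57 and 7.50 against 5.94, 6.24 and 6.38 (difference 1.35, SE 0.20, adjusted p = 0.0446). Ctss, the lysosomal protease cathepsin S that trims the class II invariant chain, read 8.45 and 7.89 against 7.10, 7.12 and 7.17 (difference 1.04, SE 0.15, adjusted p = 0.0455). Lgmn, the lysosomal protease legumain, read 9.27 and 9.28 against 8.74, 8.82 and 8.73 (difference 0.51, SE 0.07, adjusted p = 0.0359). In each of the 3 genes both aged MISR arrays were above every young WT array.

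Defining macrophage genes also lay apart without passing the test. Mpeg1, which makes the pore protein perforin-2, read 7.12 and 6.49 against 5.59, 6.02 and 6.08 (difference 0.91, SE 0.26, adjusted p = 0.155). Adgre1, a surface receptor of mature macrophages, read 7.60 and 7.65 against 6.63, 6.92 and 6.91 (difference 0.80, SE 0.22, adjusted p = 0.146). The aged WT arrays differed from each other on these markers: the list stood at 0.17 in replicate 2 and at −0.26 in replicate 3. Called macrophage markers numbered 0 without aged MISR replicate 1 and 3 without replicate 2, and 0 after a second quantile normalization, while the median of the list hardly moved. T and NK cell markers had no called gene among 4 tested and a median of −0.05. Dendritic cell markers had none among 5, with a median of −0.07.

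Other genes of leukocytes were among those called, although they stood on none of the lists. Itga4, the alpha 4 integrin of leukocytes and of muscle progenitors, was 9.02 and 8.81 in aged MISR against 7.81, 7.98 and 8.12 in young WT muscle (difference 0.94, SE 0.11, adjusted p = 0.0312). Slamf7, a receptor on plasma cells, NK cells and macrophages, was 6.95 and 6.64 against 5.98, 6.09 and 6.00, and its difference of 0.77 passed (SE 0.10, adjusted p = 0.0359). St6gal1, which adds sialic acid to antibodies and B cell glycoproteins, was 7.004 and 6.846 against 6.41, 6.42 and 6.42 (difference 0.51). Each of these genes was higher in both aged MISR arrays than in any other array. Skap2, an adaptor of leukocyte adhesion, rose by 0.53 and Plbd1, a phospholipase-like protein of granules and lysosomes, by 0.64. Rhog, a small GTPase of cell movement, rose by 0.40 with a narrow spread: 8.16 and 8.20 against 7.76, 7.76 and 7.80.

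**Figure D2:**
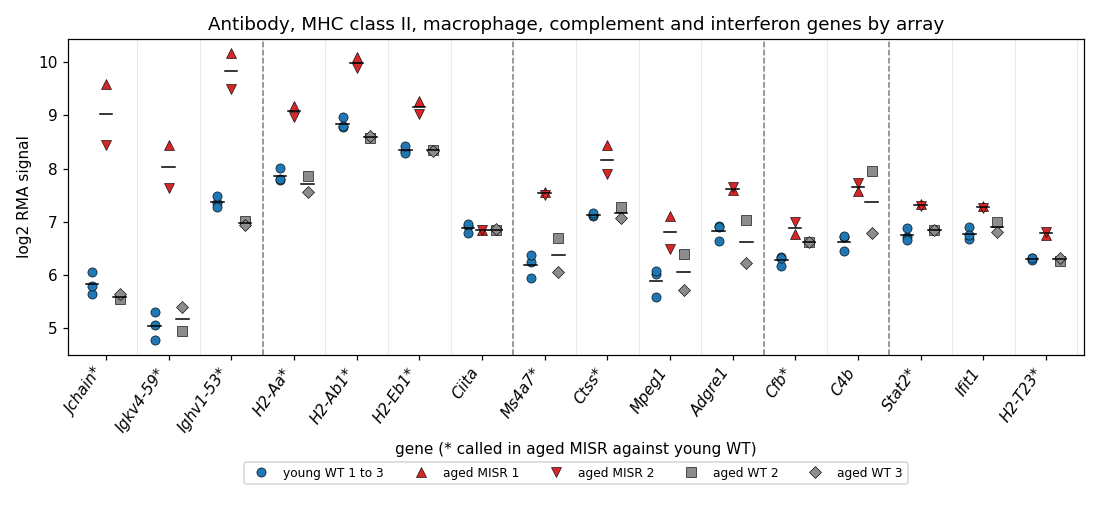
Log2 RMA signal on the vertical axis for antibody, MHC class II, macrophage, complement and interferon-related genes on the horizontal axis, 1 symbol per array and a bar at each group's mean. An asterisk marks a called gene. Jchain, Igkv4-59 and Ighv1-53 show the widest gaps, and Ciita shows none.

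Complement genes had 1 call in each direction among 14 tested, with 12 differences above zero and 2 below (60.7% above zero over all genes). Cfb, the factor B protease of the alternative pathway, read 6.78 and 6.99 against 6.17, 6.34 and 6.32 and rose by 0.61 (SE 0.09, adjusted p = 0.0446). Cd59a, the membrane protein that blocks the final pore, read 10.04 and 10.20 against 10.81, 10.75 and 10.61, and fell by 0.61 (SE 0.09, adjusted p = 0.0445). Aged WT muscle was still lower in Cd59a, at 9.95 and 9.84. The median difference of the 14 genes was 0.45. C4b, a component of the classical pathway, had the widest gap, with 7.58 and 7.72 against 6.45, 6.71 and 6.73, and missed the threshold (difference 1.02, SE 0.30, adjusted p = 0.16). For C4b, 1 aged WT array was above both aged MISR arrays and 1 below, at 7.96 and 6.78. C1qb and C3ar1, a recognition chain and a receptor, differed by 0.79 and 0.63 with adjusted p of 0.171 and 0.176.

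Interferon-stimulated genes had 1 called member of 27, with a median difference of 0.28. Stat2, which carries the type I interferon signal to the nucleus, read 7.33 and 7.29 in aged MISR against 6.72, 6.88 and 6.66 in young WT muscle (difference 0.56, SE 0.08, adjusted p = 0.0434). The aged WT arrays both read 6.84. Oas2 and Ifit1, antiviral effectors, were 0.51 and 0.50 higher with adjusted p of 0.0641 and 0.0783. The list was not even between the aged MISR arrays, standing 0.33 above the young WT mean in replicate 1 and 0.11 in replicate 2, and Cxcl9, a chemokine induced by interferon gamma, read 8.77 in replicate 1 and 7.67 in replicate 2 against 7.42, 7.36 and 7.52. Of 15 MHC class I and immunoproteasome genes, H2-T23 was the 1 called: this nonclassical molecule, a ligand of NK cell receptors, read 6.76 and 6.81 against 6.31, 6.28 and 6.31 (difference 0.48, SE 0.06, adjusted p = 0.0337). B2m, the light chain shared by class I molecules, was 0.44 higher without passing (adjusted p = 0.0771).

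Among 25 chemokines and their receptors none was called in either direction, and the median difference was 0.23. Cxcl13, which draws B cells, had the widest difference at 2.44, but its arrays scattered: 8.88 and 10.14 in aged MISR, 6.79, 6.96 and 7.46 in young WT, and 11.18 and 7.75 in aged WT muscle (SE 0.90, adjusted p = 0.216). Ccl8, a monocyte attractant, read 7.05 and 7.15 against 5.80, 6.39 and 6.31 (difference 0.93, SE 0.20, adjusted p = 0.0985). Ccl5 differed by 0.71 with an adjusted p of 0.171.

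Genes of the NF-κB pathway itself gave a single call. Of 42 subunits, inhibitors, receptors and kinases, 1 was called higher and none lower, and the median difference was 0.12, against 0.04 over all genes. The called gene was Myd88, the adaptor that links Toll-like and interleukin-1 receptors to NF-κB. It read 7.73 and 7.72 in aged MISR muscle against 7.37, 7.28 and 7.31 in young WT muscle (difference 0.41, SE 0.06, adjusted p = 0.0446), with 7.45 on both aged WT arrays. Nfkb2, the subunit of the alternative pathway, read 8.52 and 7.83 against 7.57, 7.57 and 7.71 (difference 0.56, SE 0.18, adjusted p = 0.18). Tlr4 and Il1r1, receptors upstream of Myd88, differed by 0.48 and 0.46 with adjusted p of 0.0641 and 0.15. Eda2r, a receptor of the TNF family, read 9.18 in replicate 1 and 8.13 in replicate 2, and its groups overlapped. For Ikbkb, which encodes the kinase IKKβ, the difference was 0.02.

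None of 35 NF-κB target genes was called, and their median difference was 0.12. Il15, a cytokine that muscle fibers also make, read 7.63 and 7.99 against 6.84, 7.37 and 6.99 (difference 0.74, SE 0.17, adjusted p = 0.113). Mmp9, a gelatinase, was 8.99 in replicate 1 and 7.57 in replicate 2 against 7.44, 7.36 and 7.74, so the groups overlapped. The genes that the study named in connection with NF-κB or wasting gave no call either. Pla2g5, a secreted phospholipase A2, read 6.81 and 7.17 against 6.83, 6.79 and 6.90 (difference 0.15, SE 0.24, adjusted p = 0.748), with 8.01 and 7.15 in aged WT muscle. Ccl2 differed by 0.47 (adjusted p = 0.142), Tnf by 0.13, Il33 by −0.14, and the ubiquitin ligases Trim63 and Fbxo32 by 0.12 and 0.23. Pax7, the marker of satellite cells, read 7.29 and 7.30 against 7.53, 7.58 and 7.73 (difference −0.32, SE 0.07, adjusted p = 0.112), and Myod1 differed by −0.12. Il6 and Ptgs2 did not reach the signal filter.

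**Figure D3:**
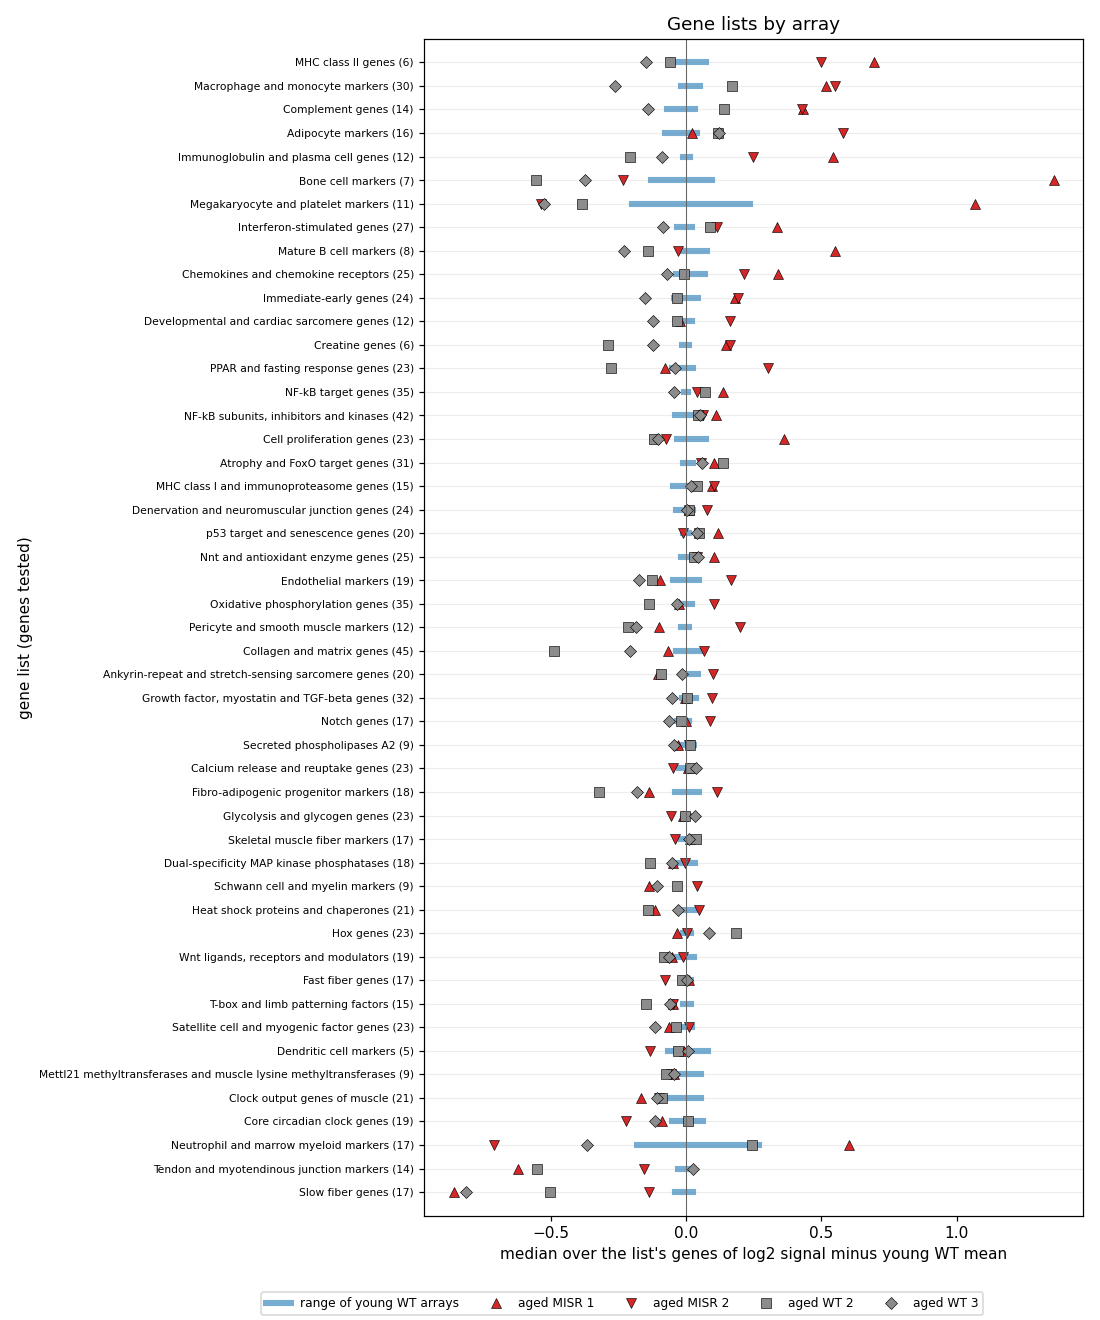
For each of the gene lists with at least 5 genes tested (number in parentheses), the median over its genes of the log2 signal minus the young WT mean, on the horizontal axis, for each aged array, with the range of the 3 young WT arrays as a bar. The aged MISR arrays agree for the MHC class II, macrophage and complement lists and lie apart for the bone, platelet, neutrophil and slow fiber lists.

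Core clock genes had 3 called rises and no called fall among 19 tested. With any 1 young WT array left out none of the 19 was called, and 1 was in a fit of only the 5 arrays compared. The circadian clock of muscle is driven by the activators BMAL1 (Arntl) with CLOCK or NPAS2, which switch on the Per, Cry, Nr1d and Dbp genes through E-boxes, while ROR and REV-ERB proteins act on Arntl, Npas2 and Nfil3 through ROR elements. Both aged MISR arrays were above all young WT arrays in 4 of the 19 genes and below them in 8, against 24.4% and 13.6% over all genes, and the median difference was −0.14. Npas2 read 7.28 and 7.70 in aged MISR against 6.17, 6.21 and 6.42 in young WT muscle. Arntl read 10.06 and 10.07 against 9.16, 9.23 and 9.26. Nfil3, a repressor of D-box genes, read 8.58 and 8.79 against 7.95, 8.09 and 7.85. The aged MISR arrays stood apart from the young WT arrays in all 3. Differences were 1.23 for Npas2 (SE 0.13, adjusted p = 0.0276), 0.84 for Arntl (SE 0.09, adjusted p = 0.0241) and 0.72 for Nfil3 (SE 0.10, adjusted p = 0.0382). Aged WT muscle read 7.19 and 7.17 for Npas2, 9.87 and 10.13 for Arntl and 8.23 and 8.25 for Nfil3.

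No core clock gene below young WT muscle passed the test. Dbp, a D-box activator switched on by BMAL1, read 9.05 and 8.46 in aged MISR against 9.41, 9.59 and 9.27 in young WT muscle (difference −0.67, SE 0.17, adjusted p = 0.13). Per3, singled out with Ciart after the values were seen, read 8.04 and 7.70 against 8.34, 8.59 and 8.40 (difference −0.57, SE 0.12, adjusted p = 0.0924). Ciart, a repressor of BMAL1, read 7.81 and 7.38 against 8.20, 8.25 and 7.85 (difference −0.51, SE 0.19, adjusted p = 0.229). These 3 did not overlap between the groups, and aged MISR replicate 2 was the lower array in each. The 21 clock output genes had no call and a median difference of −0.12. The sources used here do not give the hour of day at which muscle was taken, and its part in these differences was not tested. Without aged MISR replicate 1, 1 core clock gene was called, and 3 were without replicate 2.

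**Figure D4:**
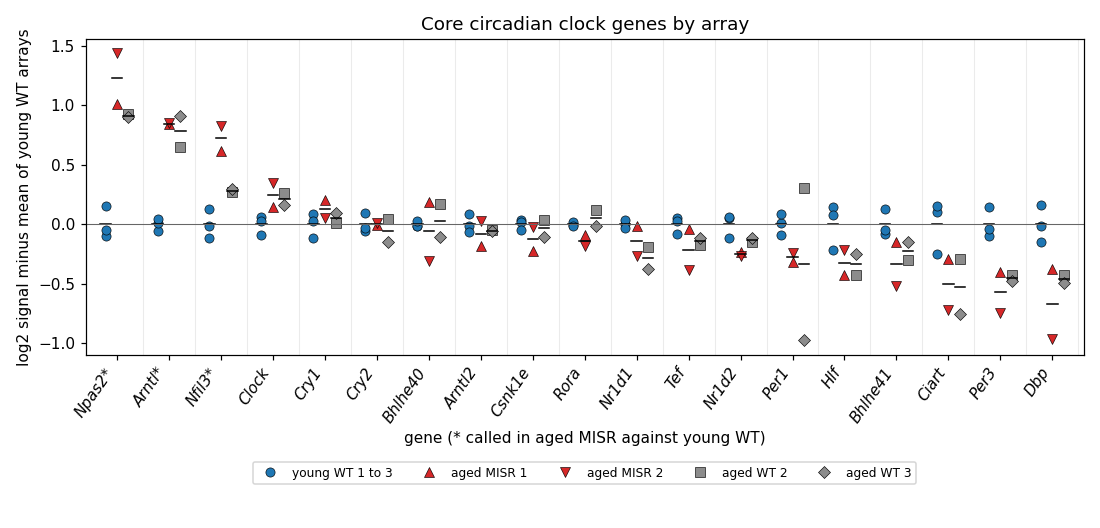
The 19 core clock genes tested, ordered by their difference, with the log2 signal minus the young WT mean on the vertical axis, 1 symbol per array and a bar at each group's mean. An asterisk marks a called gene. Npas2, Arntl and Nfil3 are above the young WT arrays at one end, and Dbp, Per3 and Ciart are below at the other.

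Promoter sequence of RefSeq (GRCm38.p6), from 250 bases before to 50 bases after each start site, was searched on both strands for the E-box CACGTG, the ROR element core AGGTCA, the D-box TTATGNAA and the last letters of an NF-κB site, GGANTTNCC. Of all 32851 such promoters, 7.15% held the E-box, 16.3% the ROR element, 3.38% the D-box and 3.95% the NF-κB letters. The 18 core clock genes with a promoter had 26 of them, of which 6 held an E-box, 5 a ROR element and 2 a D-box. Promoters of 45 genes called higher numbered 63. Of these, 9 held an E-box, 9 a ROR element, 3 a D-box and 4 the NF-κB letters. Of the 14 promoters of 13 genes called lower the counts were 1, 3, 0 and 3. A gene with several start sites can count more than once. The NF-κB letters were in 2 promoters each of Ppfibp2, called higher, and Kcne2, called lower. Promoters of 5 genes described here are shown because they hold a match, with the matched letters in capitals: the ROR element in Arntl (chr7:113207261-113207560, plus strand, 1 of its 2 start sites) and in Nfil3 (chr13:52980990-52981289, minus strand), the 3 E-boxes of Ciart (chr3:95882179-95882478, minus strand), and the NF-κB letters in H2-Aa (chr17:34287774-34288073, minus strand) and Myd88 (chr9:119339969-119340268, minus strand).
Arntl: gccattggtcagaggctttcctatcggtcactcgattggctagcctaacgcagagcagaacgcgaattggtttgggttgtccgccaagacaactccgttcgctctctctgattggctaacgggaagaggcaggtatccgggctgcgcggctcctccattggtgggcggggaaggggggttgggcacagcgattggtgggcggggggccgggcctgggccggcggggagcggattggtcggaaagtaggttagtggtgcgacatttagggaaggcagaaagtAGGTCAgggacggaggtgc
Nfil3: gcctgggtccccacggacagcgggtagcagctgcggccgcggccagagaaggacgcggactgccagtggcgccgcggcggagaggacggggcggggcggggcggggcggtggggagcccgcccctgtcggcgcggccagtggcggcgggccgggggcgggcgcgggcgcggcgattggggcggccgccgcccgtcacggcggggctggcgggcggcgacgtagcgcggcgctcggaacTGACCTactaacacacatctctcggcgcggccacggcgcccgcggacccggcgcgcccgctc
Ciart: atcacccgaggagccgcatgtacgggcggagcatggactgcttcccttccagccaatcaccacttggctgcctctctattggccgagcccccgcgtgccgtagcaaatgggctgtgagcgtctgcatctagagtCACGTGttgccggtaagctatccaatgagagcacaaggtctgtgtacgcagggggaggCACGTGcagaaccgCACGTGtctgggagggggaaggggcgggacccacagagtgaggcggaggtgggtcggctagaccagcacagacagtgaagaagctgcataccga
H2-Aa: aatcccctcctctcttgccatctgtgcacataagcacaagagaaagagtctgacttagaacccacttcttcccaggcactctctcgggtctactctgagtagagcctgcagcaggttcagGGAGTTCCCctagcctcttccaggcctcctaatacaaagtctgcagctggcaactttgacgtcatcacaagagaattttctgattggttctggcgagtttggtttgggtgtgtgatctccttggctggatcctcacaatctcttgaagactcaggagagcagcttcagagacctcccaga
Myd88: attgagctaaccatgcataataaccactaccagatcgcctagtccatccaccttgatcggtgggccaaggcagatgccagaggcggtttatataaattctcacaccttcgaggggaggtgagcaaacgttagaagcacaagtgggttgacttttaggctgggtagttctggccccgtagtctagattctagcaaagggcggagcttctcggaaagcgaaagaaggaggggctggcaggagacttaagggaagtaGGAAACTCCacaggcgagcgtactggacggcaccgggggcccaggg
The match of Arntl begins 31 bases after the start site and that of Nfil3 12 bases before it. In Ciart the E-boxes begin 116, 58 and 44 bases before the start. In H2-Aa the NF-κB letters begin 130 bases before and in Myd88 4 bases after it. A match describes these letters only.

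Among genes that set position along the body and limb, 2 of 23 Hox genes and 1 of 15 T-box and limb patterning factors were called. Hox genes lie in 4 clusters and keep in adult muscle and connective tissue a record of where along the body the tissue formed. Hoxc6 read 8.45 and 8.40 in aged MISR against 7.24, 7.53 and 7.75 in young WT muscle (difference 0.92, SE 0.14, adjusted p = 0.0455). Hoxd8 read 7.49 and 7.78 against 8.43, 8.44 and 8.38 (difference −0.78, SE 0.09, adjusted p = 0.0334). The median difference of the 23 Hox genes was −0.04. Hoxc10 and Hoxc8 were 0.88 and 0.80 higher with adjusted p of 0.0783 and 0.116. Hoxa13, which marks the far end of the limb, read 6.04 and 6.87 against 7.66, 7.48 and 7.32 (difference −1.03, SE 0.23, adjusted p = 0.108).

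Hox genes were also grouped by cluster, a step taken after the values were seen. Of 8 Hoxc genes, 6 had both aged MISR arrays above all young WT arrays and none had both below. The shares over all genes were 24.4% and 13.6%, and the median difference of these 8 was 0.59. All 3 Hoxd genes were below zero, with a median of −0.60. The 9 Hoxa and 3 Hoxb genes had medians of −0.06 and −0.09. The aged WT arrays read 8.72 and 8.64 for Hoxc6 and 7.87 and 7.85 for Hoxd8. Tbx1, a T-box factor known for its role in head and neck muscle, was the called gene of the T-box and limb patterning list. It read 9.79 and 9.54 against 8.41, 8.66 and 8.78 (difference 1.05, SE 0.13, adjusted p = 0.0334), with 9.54 and 9.41 in aged WT muscle. Tbx4, a factor of the hindlimb, read 6.97 and 7.06 against 7.38, 7.39 and 7.40 (difference −0.38, SE 0.06, adjusted p = 0.0605). Since the muscle taken is not given, its part in the Hox and T-box values was not tested.

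**Figure D5:**
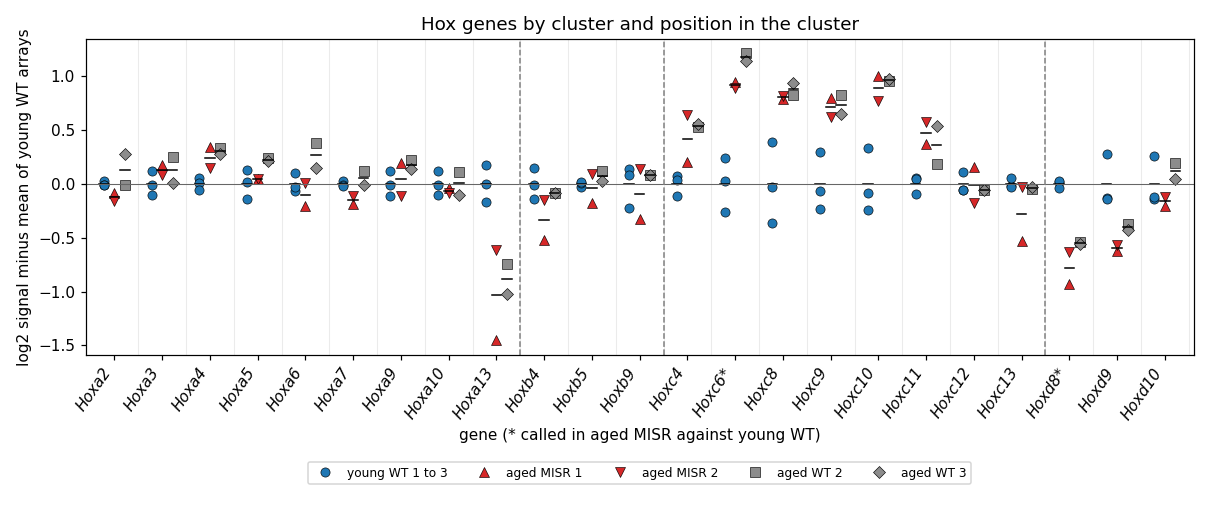
The 23 Hox genes tested, by cluster and number on the horizontal axis, with the log2 signal minus the young WT mean on the vertical axis, 1 symbol per array and a bar at each group's mean. Dashed lines part the clusters and an asterisk marks a called gene. Hoxc4 to Hoxc11 are above zero and Hoxa13, Hoxd8 and Hoxd9 below.

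Among sarcomere genes, the largest called rise was in Ankrd1, a stretch- and stress-induced ankyrin repeat protein of the sarcomere. It read 9.67 and 9.77 in aged MISR against 8.13, 8.39 and 8.56 in young WT muscle (difference 1.36, SE 0.13, adjusted p = 0.0214), and 9.78 and 9.54 in aged WT muscle. It was the 1 called gene among 20 ankyrin-repeat and stretch-sensing genes, whose median difference was 0.01. Lmod3, a leiomodin that builds thin filaments, read 9.99 and 9.90 against 10.56, 10.55 and 10.46 and fell by 0.58 (SE 0.07, adjusted p = 0.0359). Mir1a-1hg, the host transcript of the muscle microRNA miR-1a, read 10.62 and 10.69 against 11.12, 11.15 and 11.07 and fell by 0.46 (SE 0.06, adjusted p = 0.0434). Mettl21c, a lysine methyltransferase of muscle fibers, read 9.41 and 9.04 against 10.31, 10.45 and 10.12 and fell by 1.07 (SE 0.13, adjusted p = 0.0359), with 9.12 and 9.20 in aged WT muscle. Vgll2, a cofactor of TEAD in muscle, rose by 0.52 with both aged MISR arrays at 9.46 and 9.44 and the young WT arrays at 8.91, 8.98 and 8.91.

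Slow fiber genes were lower on average, without a call. Of 17 tested, 9 had both aged MISR arrays below all young WT arrays (13.6% over all genes), and the median difference was −0.42. The list stood at −0.86 in aged MISR replicate 1 and at −0.14 in replicate 2. Aged WT muscle was low as well, at −0.50 and −0.81. Myh7, the slow myosin heavy chain, read 7.87 in replicate 1 and 9.49 in replicate 2 against 10.16, 10.29 and 10.26 in young WT muscle (difference −1.56, SE 0.46, adjusted p = 0.161). Tnnc1 and Tnnt1, slow troponins, read 7.95 and 9.13 against 9.80, 9.79 and 9.87, and 6.45 and 7.58 against 8.02, 8.13 and 8.04. Replicate 1 was the lower array in all 3. The 17 fast fiber genes had a median of −0.05 with none called. Tendon and myotendinous junction markers, 14 in number, also had no call, with medians of −0.62 and −0.16 in the aged MISR arrays.

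Of 24 denervation and neuromuscular junction genes, 1 was called, and it fell. The list had 15 differences above zero and 9 below (60.7% above zero over all genes) and a median of 0.09. Prima1, which anchors acetylcholinesterase in the membrane, read 5.60 and 5.81 in aged MISR against 6.72, 6.73 and 6.52 in young WT muscle and fell by 0.95 (SE 0.10, adjusted p = 0.0266). Both aged MISR arrays were below the array median, so this fall may be a lower bound. Aged WT muscle was below it too, at 5.73 and 5.88, so the gene passed the signal filter only through the young WT arrays, and with no filter its adjusted p was 0.0409. Chrnb1 and Runx1, a receptor subunit and a transcription factor that follow loss of the nerve, differed by 0.54 and 0.53 with adjusted p of 0.108 and 0.0845. Dusp10, a phosphatase of p38 and JNK kinases, read 9.66 and 9.55 against 10.90, 10.90 and 10.62 and fell by 1.20 (SE 0.12, adjusted p = 0.0214), with 9.58 and 9.85 in aged WT muscle. None of the other 17 dual-specificity phosphatases was called. Trib1, a pseudokinase scaffold, fell by 0.44 from 7.44, 7.35 and 7.31 to 6.96 and 6.90.

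Among called genes the largest fall was in 1700030N03Rik, a gene without a named function, at 5.89 and 5.84 in aged MISR against 7.22, 7.10 and 7.33 in young WT muscle (difference −1.35, SE 0.08, adjusted p = 0.00745). Its aged WT arrays, at 6.39 and 6.33, lay between. Rln3, a relaxin family peptide, read 5.92 and 6.29 against 7.08, 7.18 and 6.86 and fell by 0.93. Cep85l, a centrosomal protein, read 8.17 and 8.29 against 9.13, 9.23 and 8.99 and fell by 0.89. Olfr484, an odorant receptor, read 7.44 and 7.33 against 8.31, 8.11 and 8.56 and fell by 0.94. E230001N04Rik, an unnamed transcript, read 5.50 and 5.69 against 6.55, 6.42 and 6.41 and fell by 0.87, with both aged MISR arrays below the array median, and passed the filter only through the young WT arrays (adjusted p = 0.0328 with no filter). Adamts8, a secreted metalloprotease, read 5.66 and 5.86, also below the median, against 6.41, 6.60 and 6.37 and fell by 0.70. The groups did not overlap in any of them. The remaining falls, from −0.55 to −0.64, were in Olfr978, Kcne2, Gm20597 and Snora47.

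Of 23 PPAR and fasting response genes, 2 were called higher and none lower, with a median difference of 0.13. Angptl4, a fasting-induced inhibitor of lipoprotein lipase, read 6.65 and 6.77 in aged MISR against 5.77, 5.87 and 5.79 in young WT muscle (difference 0.90, SE 0.07, adjusted p = 0.00997). All young WT arrays were below the array median, so this rise may be a lower bound. The aged WT arrays were as low, at 5.75 and 5.81, so the gene passed the signal filter only through the aged MISR arrays, and with no filter its adjusted p was 0.0131. Hadhb, a subunit of the mitochondrial fat-oxidizing trifunctional protein, read 7.57 and 7.57 against 6.99, 7.15 and 6.96 (difference 0.54, SE 0.08, adjusted p = 0.0434). The PPAR and fasting response list stood at 0.30 in aged MISR replicate 2 and at −0.08 in replicate 1.

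Cyp4f39, a cytochrome that hydroxylates long fatty acids, read 9.26 on both aged MISR arrays against 8.03, 8.15 and 8.26 (difference 1.12, SE 0.08, adjusted p = 0.0098), with 8.55 on both aged WT arrays. Cyp4v3, a related hydroxylase, read 5.97 and 5.91 in aged MISR and 5.33, 5.11 and 5.24 in young WT muscle (difference 0.71). It passed the signal filter only through the aged MISR arrays and was not called with no filter (adjusted p = 0.0543). Maob and Maoa, the mitochondrial monoamine oxidases, rose by 0.73 and 0.62, with 10.34 and 10.24 against 9.47, 9.52 and 9.68 for Maob. Ak4, a mitochondrial adenylate kinase, read 7.92 and 8.33 against 7.37, 7.30 and 7.21 and rose by 0.83. Irs2, an insulin receptor substrate, read 9.28 and 9.27 against 8.61, 8.64 and 8.62 (difference 0.65, SE 0.08, adjusted p = 0.0334) and was the 1 called of 32 growth factor, myostatin and TGF-beta genes. Igf1, the growth factor upstream of it, read 7.92 and 8.37 against 9.01, 8.96 and 8.67 (difference −0.74, SE 0.17, adjusted p = 0.107). Adipocyte markers stood 0.58 above the young WT mean in replicate 2 and 0.02 in replicate 1 with none called, and Scd1, the fatty acid desaturase, read 11.55 and 9.91 in these arrays.

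Single genes of signaling and transcription were also called. Pim1, a cytokine-induced kinase, read 9.25 and 8.86 against 8.10, 8.03 and 8.18 (difference 0.96, SE 0.11, adjusted p = 0.0334). Klf10, a factor induced by TGF-beta, read 8.59 and 8.30 against 7.56, 7.77 and 7.61 and rose by 0.80. Hes1, the main Notch target, read 8.08 and 8.17 against 7.52, 7.47 and 7.38 (difference 0.67, SE 0.07, adjusted p = 0.0241) and was the 1 called of 17 Notch genes, whose median was 0.01. Ccn1, a matrix-bound immediate-early protein, read 9.61 and 9.34 against 8.75, 8.80 and 8.78 and rose by 0.70, the 1 called of 24 immediate-early genes with a median of 0.19. Sik1, a kinase induced by cAMP, rose by 0.55 with young WT arrays at 8.89, 8.88 and 8.86 and aged MISR arrays at 9.43 and 9.42. Both aged MISR arrays were above all young WT arrays in these genes. Wsb1, a ubiquitin ligase subunit, rose by 0.83, and Dapk1, a death-associated kinase, by 0.86, where the young WT arrays agreed at 7.07, 7.06 and 7.06 and the aged MISR arrays read 7.849 and 8.003.

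Among 45 collagen and matrix genes 1 was higher and 1, Adamts8, was lower, with a median difference of 0.02. The higher gene was Lox, the enzyme that crosslinks collagen, at 7.64 and 7.35 in aged MISR against 6.61, 6.57 and 6.68 in young WT muscle (difference 0.88, SE 0.11, adjusted p = 0.0337). Adamts5, an aggrecanase, was 0.77 higher without passing (adjusted p = 0.1). The 18 markers of fibro-adipogenic progenitors had a median of −0.01 with none called. Further rises were seen in Armh4 (0.94) and Bex1 (0.85), in Pkp2, a desmosomal plakophilin (0.76), and in the liprins Ppfibp2 (0.75) and Ppfibp1 (0.61). Armh4 read 6.98 and 6.87 against 5.81, 6.13 and 6.01, and 7.300 and 6.999 in aged WT muscle. Bex1, a brain-expressed X-linked gene that is also found in regenerating muscle, read 9.69 and 9.41 against 8.61, 8.76 and 8.73. Hprt, a purine salvage gene often used as a reference, rose by 0.46 with 8.76 and 8.70 against 8.26, 8.30 and 8.25, whereas Actb, another such gene, differed by 0.00. Another 12 rises, of 0.43 to 0.68, were in Peg13, Rnf128, Gm20559, 4930555G01Rik, Btaf1, St8sia6, Evi5, Zfp462, Rab6b, Kdm3a, Pde7a and Mir1933, and the smallest, 0.39, was in Dap.

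Markers of some cells outside the fiber stood apart in single aged MISR arrays. Megakaryocyte and platelet markers, 11 tested, stood 1.07 above the young WT mean in replicate 1 and at −0.54 in replicate 2. Bone cell markers, 7 tested, stood at 1.36 and −0.23, and neutrophil and marrow myeloid markers, 17 tested, at 0.60 and −0.71. Cell proliferation genes stood at 0.36 and −0.08. No gene of these lists was called. Ibsp, a protein of mineralized bone, read 9.07 in replicate 1 and 5.16 in replicate 2 against 6.28, 6.34 and 7.02 in young WT muscle, and Gp9, a platelet receptor chain, read 9.67 and 7.46 against 7.90, 8.13 and 8.27. The called antibody and MHC class II genes were higher in replicate 1 too. Both arrays stood above young WT muscle in these genes, as in every gene called higher. The part of bone, blood or marrow in their values was not tested.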

How the data were processed

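Biotin-labelled RNA of whole skeletal muscle (3 young WT, 2 aged WT and 2 aged MISR mice) was hybridised to 1-colour Affymetrix Mouse Gene ST arrays. The deposited values are log2 signals that the authors had normalized with RMA; for its version and the annotation, none is given in the sources used here. Scanner intensities were not used, and the number of arrays limits the precision. All 7 arrays were kept, and every column of values had a sample.

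Of 41345 features, 25341 were listed with a gene, 23521 of them with 1 symbol (22180 genes); the 1820 with several symbols and the 16004 not listed were left out. A gene was tested when a feature reached its array's median on at least 2 arrays, and its feature with the highest mean was used (446 tested genes had several). Group means were compared in 1 fit with limma 3.58.1 in R 4.3.3 (4 residual and 3.13 prior degrees of freedom), with Benjamini-Hochberg adjustment over 13364 genes. The steps were tested on simulated data. The study's statistics name a 2-group test at 0.05, run as an alternative. Figures were drawn with Python 3.11.15 and matplotlib 3.10.9.

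The comparison and the 51 gene lists, written from textbook knowledge, were chosen with earlier results of these data known, so they lend no independent support. They hold 869 tested genes, 31 of the called among them. Every called gene is named, with values per array for the 15 largest rises, the 10 largest falls and called list members, along with up to 4 members per list with the largest difference in size, and 14 genes that the study names. Others are marked in the text. Sets of promoters came from RefSeq, which held none for 16 genes called higher and 5 called lower.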

Additional observations from a re-analysis of the deposited data

How the results depend on the processing

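None of the calls held under all 17 alternative fits. Each alternative kept the sign of all 79 called differences it tested. With an array left out or arrays weighted that was fixed beforehand, since the groups did not overlap in the called genes. It was also fixed where only the test, the variance estimate or the signal filter changed, for genes whose feature and group means stayed the same. At least 10 fits kept 8 of the genes, and 1700030N03Rik was kept most often (14). The fits without either aged WT array and that of only the 5 arrays compared are the same fit for this comparison. A lone aged WT array adds no spread. They enter the 17 and these counts separately. Against 61 higher and 18 lower calls, there were 25 and 9 after a second quantile normalization, 107 and 21 with arrays centred on their medians, 16 and 5 with no signal filter, 21 and 5 with array weights, 9 and 4 in a fit of only the 5 arrays compared and 5 and 1 with the methods' 2-group test after adjustment (1149 and 562 before it). The 79 called genes held all 34 calls after the second quantile normalization and all 26 with array weights. They held 20 of 21 with no signal filter and 78 of 128 with centring. In the fit of only the 5 arrays they held 9 of 13, and in the adjusted 2-group test 2 of 6. An adjusted p under 0.1 gave 204 and 76. Centring moved the median difference over all genes from 0.04 to 0.08 and the second quantile normalization moved it to −0.01. Leaving out 1 array at a time gave 0 to 329 higher and 0 to 137 lower calls, in all 13 with either aged WT array left out, 36 and 466 with aged MISR replicates 1 and 2 left out and 0, 1 and 2 without young WT replicates 1, 2 and 3. Without young WT replicate 1, 1579 genes had an unadjusted p under 0.05. Whether the replicate numbers pair the samples could not be decided. Deviations of same-numbered young WT and aged MISR arrays correlated at −0.22 and −0.01, and those of differently numbered arrays at 0.22 and 0.01. With 2 aged MISR arrays these values mirror each other by arithmetic, and the aged WT arrays were left out. With the number as a block there were 0 higher and 0 lower calls, and 1600 genes at an unadjusted p under 0.05.

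Uncalled genes changed sign. Actb was −0.0588 and Ikbkb −0.0742 after the second quantile normalization, and Ckm was 0.0269 there and 0.0208 with centring. Without 1 array, the differences ran from −0.1021 to 0.0552 in Actb, −0.0189 to 0.6754 in Cd79a, −0.116 to 0.0807 in Ckm, −0.0306 to 1.0211 in Eda2r, −0.6404 to 1.5747 in Gp9, −1.3857 to 2.5254 in Ibsp, −0.0141 to 0.0438 in Ikbkb, −0.2566 to 0.0152 in Myod1, −0.0307 to 0.3263 in Pla2g5 and −0.2481 to 0.4919 in Trim63. The cause was not tested. The number of arrays limits the precision.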

Other observations

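Several genes on the lists lay well apart between aged MISR and young WT muscle without passing the test. Nnt, which encodes the mitochondrial proton-pumping transhydrogenase and is deleted in part in the C57BL/6J substrain, had signals of 8.62 and 9.06 in aged MISR muscle and of 9.82, 9.81 and 9.65 in young WT muscle (difference −0.92, SE 0.15, adjusted p = 0.0627 in the limma fit). The aged WT arrays were low as well, at 8.86 and 8.51. Its list of 25 antioxidant genes had no call and a median difference of 0.07. The substrain of each mouse is given nowhere in the sources used here, and its part in any result was not tested. Pla2g2d, a secreted phospholipase A2 of lymphoid tissue, had 7.48 and 7.87 against 7.01, 6.94 and 7.004, a difference of 0.69 (SE 0.11, adjusted p = 0.0593), and its aged WT arrays stayed at 7.02 and 6.95. Among the 9 secreted phospholipases A2 tested it had the largest difference, and the median was 0.01.

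Depp1, a FoxO target of fasting, had 9.10 and 8.41 in aged MISR muscle against 7.42, 7.59 and 7.71 (difference 1.18, SE 0.28, adjusted p = 0.116), while its list of 31 atrophy and FoxO target genes had a median of 0.11 and no call. Slc16a3, the lactate exporter of fast fibers, had 9.42 and 9.49 against 9.77, 9.84 and 9.81 (difference −0.35, SE 0.06, adjusted p = 0.0652), in a list of 23 glycolysis and glycogen genes with a median of −0.02. Prg4, the lubricin of tendon and joint surfaces, had 8.33 and 8.80 against 9.42, 9.64 and 10.09 (difference −1.15, SE 0.27, adjusted p = 0.116). Oxidative phosphorylation genes, 35 tested, had a median of 0.04 with no call, and their differences ran from −0.19 to 0.13. Past 2-fold there were 25 higher and 18 lower genes, of which 14 and 15 were not called.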
